A study of Rattus norvegicus with 14 samples.

Results

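The hypoxia-responsive genes described here were Hif1a, which encodes the oxygen-regulated subunit of hypoxia-inducible factor 1, and 9 of the genes this factor is known to control. They were Egln1, Egln3, Ndrg1, Car9, Slc2a1, Bnip3, Ddit4, Vegfa and Adm, and the glycolytic enzymes were left out. The members were taken by name, as every non-control probe of the array that carried a member's symbol, a rule that uses no measured value. All 10 genes were on the array, among 26276 gene names. They had 14 probes among 30367, with 4 for Vegfa, 2 for Ddit4 and 1 for each of the others. All 14 probes were well above background on all 14 arrays, and none was saturated.

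Male Wistar rats, whose age the labels do not give, were fed ad libitum for 15 days with an isocaloric normal-protein diet (NPD, 14% of energy from protein) or high-protein diet (HPD, 55%), the added protein replacing carbohydrate. Colonocytes, the epithelial cells lining the colon, were detached by EDTA perfusion of the colon and washed. Their total RNA was run on 1 single-colour array per rat, with 7 rats on each diet. The comparison of the diets answers how colonocyte gene expression differed after an HPD. Each sample is the RNA of a whole cell preparation, so fewer cells of a type and less RNA per cell cannot be told apart. For oxygen-responsive genes the isolation itself is part of the measurement. In every rat the detaching buffer, gassed with O2 and CO2 at 19 to 1, ran through the colon at 37 °C for 20 min, and the part of this step in the levels was not tested.

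The colon epithelium lives on a steep oxygen gradient, because its lumen is nearly anoxic and colonocytes use much oxygen to burn the butyrate that bacteria make. With oxygen present, prolyl hydroxylases mark the HIF alpha subunits, and the VHL ubiquitin ligase then sends them to the proteasome. With little oxygen the alpha subunits persist, pair with ARNT and bind short DNA sequences with the core ACGTG or GCGTG near their targets. HIF-1α is set mainly at the level of its protein, so the mRNA of Hif1a is not a readout of its activity.

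Levels are given as the log2 signal of a probe minus the median of its array, so 0 is the median probe, and changes as HPD minus NPD on this log2 scale. The levels of different probes were not set against each other. NPD arrays had 19640 to 20976 probes well above background, and HPD arrays 18839 to 20376. The median change over all 30367 probes was 0.11 on this scale and 0.00067 after cyclic loess, so changes relative to the 0.11 are also given. Over the 18384 probes well above background on every array of a diet, the median change was 0.05. HPD arrays were dimmer, with a median signal of 53.5 to 75.1 before centring, against 66 to 100.3 on NPD arrays. The part of this in the changes was not tested. The arrays lay on 2 slides, scanned as separate runs. On slide 1 lay NPD replicates 1 to 4 and HPD replicates 1 to 3, and on slide 2 the others. Slide differed at a q-value below 0.1 for 12164 probes, so the changes within each slide stand beside the main ones. One array, HPD replicate 1 on slide 1, stood apart. Without it limma called 151 probes in place of 17.

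The epithelial identity of the preparations was visible in their markers. All 8 epithelial markers on the array (Epcam, keratins and others) and all 9 goblet cell markers were well above background on all 14 arrays, as were 7 of 8 absorptive markers. The mean log2 level of the epithelial markers was 8.65 to 8.79 on the NPD arrays and 8.53 to 8.86 on the HPD arrays. Signal from other cells was present too. Of the endothelial markers 5 of 8 were above background on every array and 1 on no array, and their mean level was -0.47 to -0.09 (NPD) and -0.46 to 0.10 (HPD). Of the immune markers 4 of 8 were above background on every array, with a mean level of -0.997 to 1.27 (NPD) and -0.96 to 0.05 (HPD). Red blood cell markers, of which 2 of 5 were above background on every array, ranged from 0.24 to 1.50 and from -0.50 to 2.82. The markers of absorptive cells were higher in the HPD group for 8 of 8 genes (median change 0.18) and those of red blood cells for 5 of 5 (0.40), with 1 in each list at an unadjusted p under 0.05. Goblet markers were higher for 4 and lower for 5 (-0.20) and epithelial markers for 4 and 4 (-0.03). In the main fit, stem and cycling markers were higher for 3 and lower for 4 (-0.23), and stroma and muscle markers for 5 and 4 (0.07). Of these 2 lists, 5 of 7 and 6 of 9 genes were above background on every array. The main fit called none of the marker genes. After normexp, a background correction with which limma called 16.9% of all features, genes of every marker list but red blood cells were called. Of all 30367 probes, 19496 were higher in the HPD group in the main fit. Absorptive markers were higher for 6 of 8 genes with normexp, quantile normalization or cyclic loess, and likewise from the deposited values. Red blood cell markers were higher for 3 of 5 genes (median 0.04) without HPD replicate 1. Without HPD replicate 2 they were higher for 2 and lower for 3 (median -0.03). Without any other single array they were higher for 4 or 5. The part of other cells in the results below was not tested.

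The probes decide what part of an mRNA is measured, and for Vegfa they differ. Vegfa encodes the angiogenic vascular endothelial growth factor A, whose mRNA is spliced into short and long forms. By textbook gene structure, 2 of its probes lie in coding sequence that all forms share and another lies in the exon of the heparin-binding region that the shortest forms skip. The sequences of a probe of each kind are shown because they did not give the same change. They lie on the plus strand of build rn4 at chr9:10528551-10528610 and chr9:10531972-10532031, each with 60 bases, in the order of the lines below.
A_64_P099891, shared coding sequence: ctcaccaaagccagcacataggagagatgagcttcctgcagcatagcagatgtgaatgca
A_64_P155983, heparin-binding exon: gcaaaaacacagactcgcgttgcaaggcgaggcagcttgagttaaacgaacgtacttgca
The brightest probe, A_64_P099886, lies farther in the 3′ direction, at chr9:10535933-10535992.

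The HIF core motifs were looked for on both strands in the 250 bases before and 50 bases after the transcription start of each member (RefSeq, GRCr8). The promoter table matched 9 of the 10 members by symbol, all but Ndrg1. Of these, 6 held ACGTG or GCGTG, compared with 41.6% of all 33469 promoters of this length (19.3% for ACGTG, 29.7% for GCGTG). Hif1a, Slc2a1, Egln1, Bnip3, Ddit4 and Car9 held between 1 and 4 matches. Egln3, Adm and both windows listed for Vegfa held none of these letters. The densest group was in Bnip3, with 4 matches between bases -108 and -86 from the start, of which 2 overlap because ACGTG and its complement share the 6 bases of CACGTG. Slc2a1 also held 4, from base -153 to base -12. The Bnip3 window with all its matches and the Slc2a1 window around its only ACGTG are shown because both genes varied together across rats (below), with those matches, of either strand, in capitals.
Bnip3, bases -126 to -68, minus strand, chr1:203155030-203155088: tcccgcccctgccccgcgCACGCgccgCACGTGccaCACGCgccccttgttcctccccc
Slc2a1, bases -69 to -29, plus strand, chr5:138002453-138002493: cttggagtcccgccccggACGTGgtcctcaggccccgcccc
A match is a stretch of letters, and binding was not measured. A part of these motifs in the shared variation of Bnip3 and Slc2a1 was not tested.

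No hypoxia-responsive gene passed the threshold of a q-value (the p adjusted over all probes) below 0.1. limma called 0 of the 10 members, each counted by its brightest probe, where it called 0.056% of all probes, all higher in the HPD group. At an unadjusted p under 0.05, 0 members were higher and 1, Ndrg1, was lower, against 5.86% and 5.55% of all probes. By sign, 7 of the 10 members were lower in the HPD group (Ndrg1, Egln3, Ddit4, Car9, Adm, Hif1a and Egln1) and 3 were higher (Bnip3, Vegfa and Slc2a1). Of all probes 35.8% were lower. This share was 43.2% among probes well above background, 46.5% after quantile normalization and 49.9% after cyclic loess, each with 7 members lower. The median change of the members was -0.07, and it lay between -0.21 (without HPD replicate 1) and -0.03 (without HPD replicate 2) in the alternative settings, with -0.16 without NPD replicate 5 and -0.19 after normexp or in the deposited table. The diets overlapped for all 14 probes, and 0.273% of all probes did not overlap. Without HPD replicate 1 the count of members called stayed at 0, with Ndrg1 and Egln3 under an unadjusted p of 0.05.

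**Figure D1:**
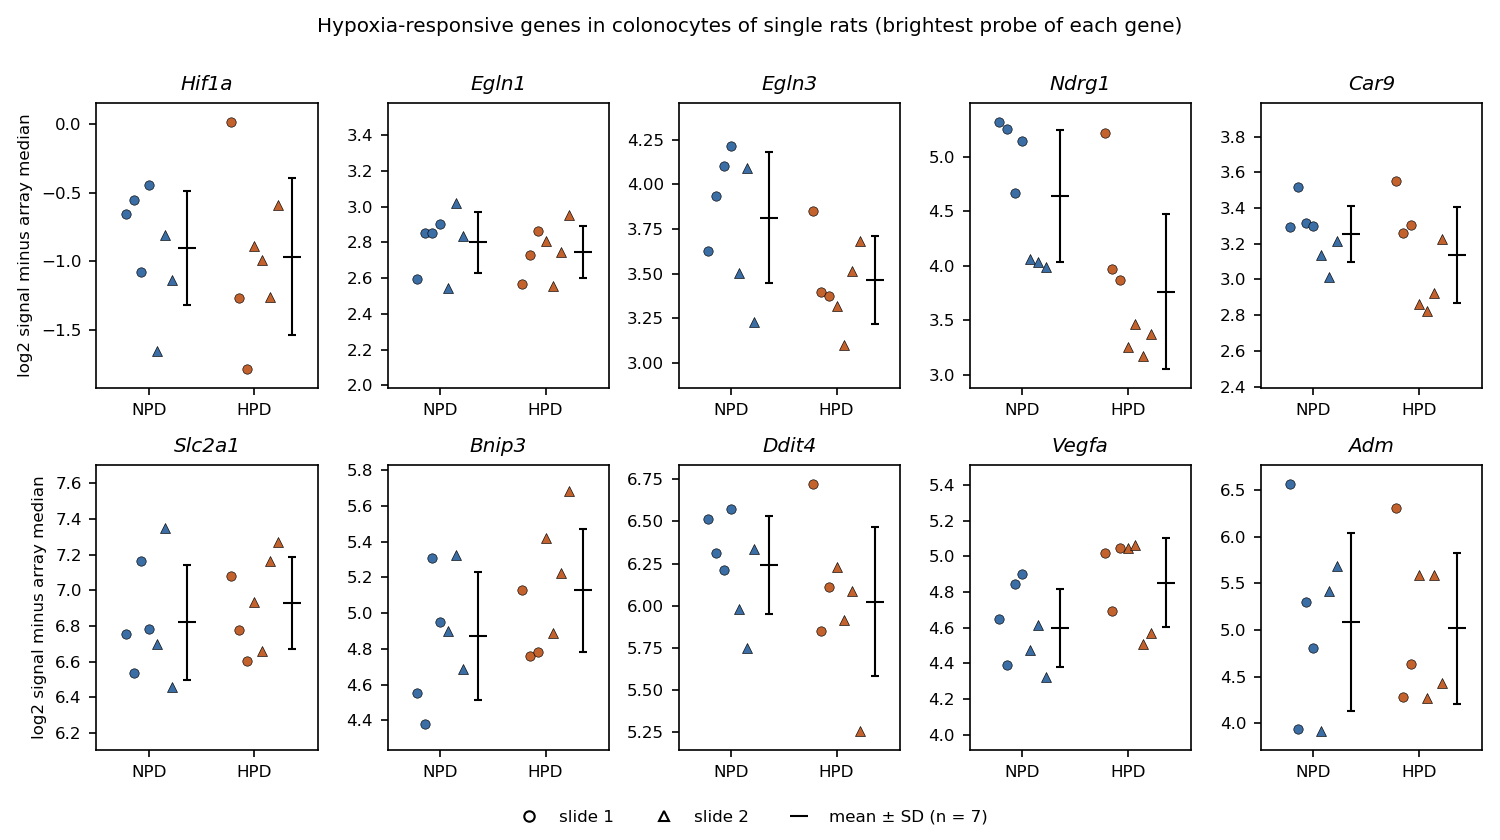
Log2 signal minus the array median of each hypoxia-responsive gene (brightest probe) in each rat, NPD in blue and HPD in orange, circles for slide 1 and triangles for slide 2, with the mean ± SD of 7 rats beside the points. Each panel has its own scale. For Ndrg1 6 of 7 HPD arrays lay below the NPD mean, and all panels overlap.

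Ndrg1 had the largest change of the 14 probes. It encodes a cytoplasmic protein of the N-myc downstream-regulated family that rises in hypoxic and in differentiating epithelial cells. On slide 1 the level was 5.32, 5.25, 4.67 and 5.14 in the NPD rats and 5.22, 3.97 and 3.87 in the HPD rats. On slide 2 it was 4.07, 4.03 and 3.99 in the NPD rats and 3.25, 3.47, 3.18 and 3.37 in the HPD rats. The diets did not overlap on slide 2, and on slide 1 HPD replicate 1 alone lay within the NPD range. The mean was 4.64 ± 0.61 (SD, n = 7) under the NPD and 3.76 ± 0.71 (SD, n = 7) under the HPD. The change was -0.88 ± 0.33 (SE), or -0.98 relative to the median of all probes, a 0.545-fold level with a 95% interval of 0.337 to 0.882 (limma, unadjusted p = 0.0169, adjusted p = 0.417). The exact two-sided permutation test gave p = 0.0262 over all splits of the arrays (n = 7 per diet) and p = 0.00408 within slides. The change was -0.74 within slide 1 and -0.71 within slide 2. The slides also differed at this probe, by -1.05 from slide 1 to slide 2 (adjusted p = 0.00178). With slide as a block the adjusted p was 0.207. Without HPD replicate 1 the change was -1.12 (adjusted p = 0.108).

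The call on Ndrg1 depended on the processing. It passed the threshold after normexp, a model-based background correction, of the mean pixel signal (-0.96, adjusted p = 0.0897), after normexp with slide as a block (-0.81, adjusted p = 0.0286) and from the deposited values with a slide block (-0.81, adjusted p = 0.0463). These settings called 16.9%, 27.9% and 10.5% of all features, and among the 8 epithelial markers they called 2, 3 and 2 genes, all lower. Its direction was the same in all 31 alternative settings that gave a value, with changes from -1.12 to -0.71. The study itself called Ndrg1 lower under the HPD at a q-value below 0.1 from these arrays, and it also listed Egln3. Over the whole array the study called more genes lower than higher. The main fit here called 17 probes, all higher in the HPD group, and 0 lower. That it called neither Ndrg1 nor Egln3 is therefore not particular to these genes. The cause of this difference from the study was not tested. As the arrays are the same, Ndrg1 and Egln3 are not independent evidence here.

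Egln3, a prolyl hydroxylase that is itself strongly induced by HIF, was the other member under the threshold in those settings. In the NPD rats its level was 3.63, 3.93, 4.11 and 4.21 on slide 1 and 3.50, 4.09 and 3.23 on slide 2. In the HPD rats it was 3.85, 3.40 and 3.38 on slide 1 and 3.32, 3.1, 3.52 and 3.68 on slide 2. The diets overlapped on both slides, and 6 of 7 HPD arrays lay below the NPD mean. The change was -0.35 ± 0.17 (SE), or -0.46 relative to the median of all probes (95% interval of the change -0.71 to 0.01, adjusted p = 0.441). The exact permutation p was 0.0594 over all splits (n = 7 per diet) and 0.0751 within slides. The change was -0.43 within slide 1 and -0.20 within slide 2. Egln3 passed the threshold after normexp (adjusted p = 0.0893, change -0.44), after normexp with slide as a block (adjusted p = 0.0585, change -0.41) and from the deposited values with a slide block (adjusted p = 0.072, change -0.43).

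The other prolyl hydroxylase, Egln1, which is the main oxygen sensor of most cells, varied little. Its level was 2.55 to 3.02 (median 2.85) under the NPD and 2.56 to 2.95 (median 2.75) under the HPD. The change was -0.05 with a 95% interval of -0.29 to 0.18 (adjusted p = 0.806), that is, levels from 0.82-fold to 1.13-fold. Hif1a had a weak signal, below the array median in 13 of the 14 rats. Its level ranged from -1.65 to -0.44 (median -0.81) under the NPD and from -1.79 to 0.01 (median -0.99) under the HPD. HPD replicate 1 had the highest value and HPD replicate 3, on the same slide, the lowest. The change was -0.06 with a 95% interval of -0.60 to 0.47 (adjusted p = 0.906). Its sign turned with the signal column and background correction, and it was -0.33 within slide 1 and 0.27 within slide 2.

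**Figure D2:**
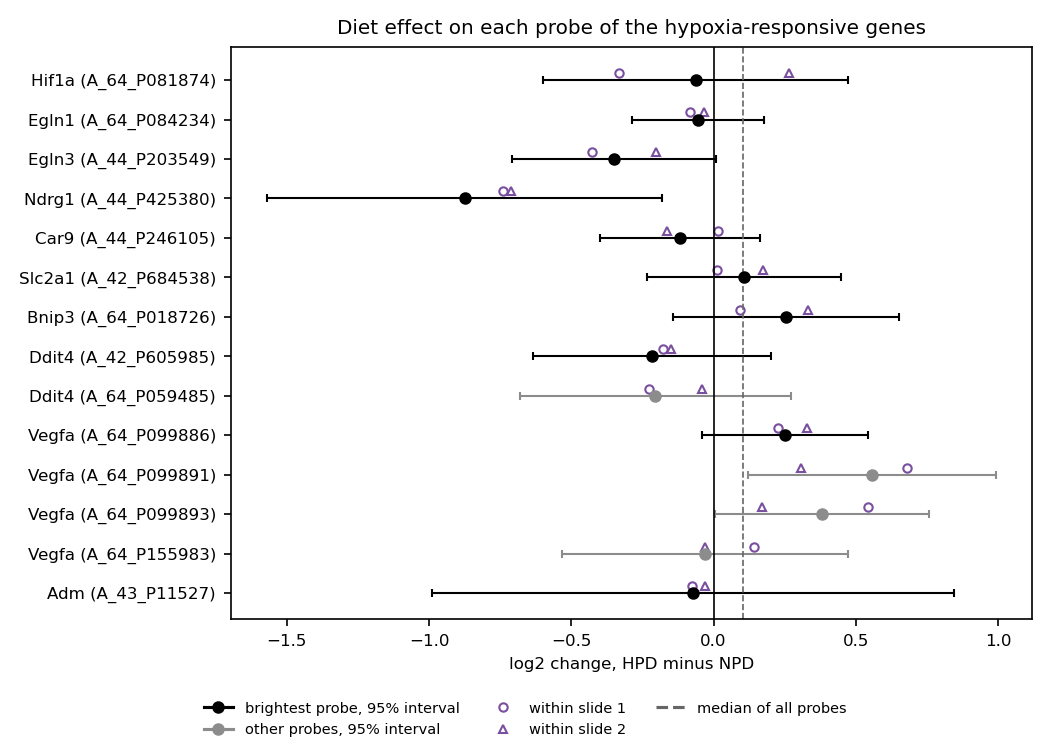
Log2 change (HPD minus NPD, x axis) of each of the 14 probes with its 95% interval from limma, black for the brightest probe of a gene and grey for the others, with the changes within slide 1 (circles) and slide 2 (triangles) above. The dashed line is the median of all probes, 0.11. The intervals of Ndrg1 and of the shared-coding Vegfa probes do not include 0.

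The targets that act in metabolism and in the stress of the cell itself did not move one way. Car9, a carbonic anhydrase of the cell surface that serves pH control, had levels of 3.01 to 3.52 (median 3.29) under the NPD and 2.83 to 3.55 (median 3.23) under the HPD, a change of -0.12 (95% interval -0.40 to 0.16). Ddit4, which restrains the growth kinase mTORC1 under stress, was measured by 2 probes that ran in parallel (r = 0.97 over the 14 arrays). The brighter one was at 5.75 to 6.57 (median 6.31) under the NPD and at 5.25 to 6.72 (median 6.09) under the HPD. The changes of the Ddit4 probes were -0.22 (95% interval -0.63 to 0.20) and -0.21 (-0.68 to 0.27). HPD replicate 1 had the highest value in both diets for Car9 and for both Ddit4 probes. None of these changes passed the threshold (adjusted p from 0.591 to 0.656).

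Slc2a1 encodes the glucose transporter GLUT1 of the basolateral membrane. Its level was 6.46 to 7.35 (median 6.75) under the NPD and 6.60 to 7.27 (median 6.93) under the HPD. Its change was 0.11 (95% interval -0.23 to 0.45, adjusted p = 0.742), which is the median change of all probes, and the sign turned with the signal column and background correction. Bnip3, a mitochondrial protein that starts mitophagy, was at 4.38 to 5.32 (median 4.90) under the NPD and 4.76 to 5.68 (median 5.13) under the HPD. Its change was 0.26, or 0.15 relative to the median of all probes (95% interval of the change -0.14 to 0.65, adjusted p = 0.515). It was higher in the HPD group in all alternative settings, with changes of 0.08 to 0.33.

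The secreted members were Vegfa and Adm. For Vegfa the 4 probes gave different changes. The brightest, A_64_P099886, was at 4.32 to 4.90 (median 4.62) under the NPD and 4.51 to 5.07 (median 5.02) under the HPD, and its change was 0.25 (95% interval -0.04 to 0.54, adjusted p = 0.468). The probe A_64_P099891 over shared coding sequence was at 3.94, 3.41, 4.43 and 4.20 (slide 1) and 4.33, 4.98 and 4.56 (slide 2) in the NPD rats. In the HPD rats it was at 4.82, 4.55 and 4.66 (slide 1) and 5.29, 4.96, 4.62 and 4.86 (slide 2). On slide 1 the diets did not overlap, and on slide 2 they did. All 7 HPD arrays lay above the NPD mean. The change was 0.56 ± 0.20 (SE), or 0.45 relative to the median of all probes, a 1.47-fold level with a 95% interval of 1.09 to 1.99 (limma, unadjusted p = 0.0154, adjusted p = 0.417). The exact permutation p was 0.0169 over all splits (n = 7 per diet) and 0.018 within slides. It was 0.68 within slide 1 and 0.31 within slide 2.

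The other shared-coding Vegfa probe, A_64_P099893, was at 1.75 to 2.91 under the NPD and 2.48 to 3.14 under the HPD, with a change of 0.38 (95% interval 0.01 to 0.76, adjusted p = 0.437). The Vegfa probe in the heparin-binding exon, A_64_P155983, was at -0.66 to 0.10 under the NPD and at -1.07 to 0.61 under the HPD. Its change was -0.03 (95% interval -0.53 to 0.47). Across the 14 arrays both shared-coding probes ran together (r = 0.92), while A_64_P099891 and A_64_P155983 did not (r = -0.14). The difference between probes of 1 gene on the same array was tested for 7 pairs, 6 of Vegfa and 1 of Ddit4. None of the 7 differences passed between the diets (lowest adjusted exact permutation p = 0.244, n = 7 per diet). The largest, A_64_P099891 minus A_64_P155983, was 0.59 higher under the HPD. A change of splice forms between the diets was therefore not shown.

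**Figure D3:**
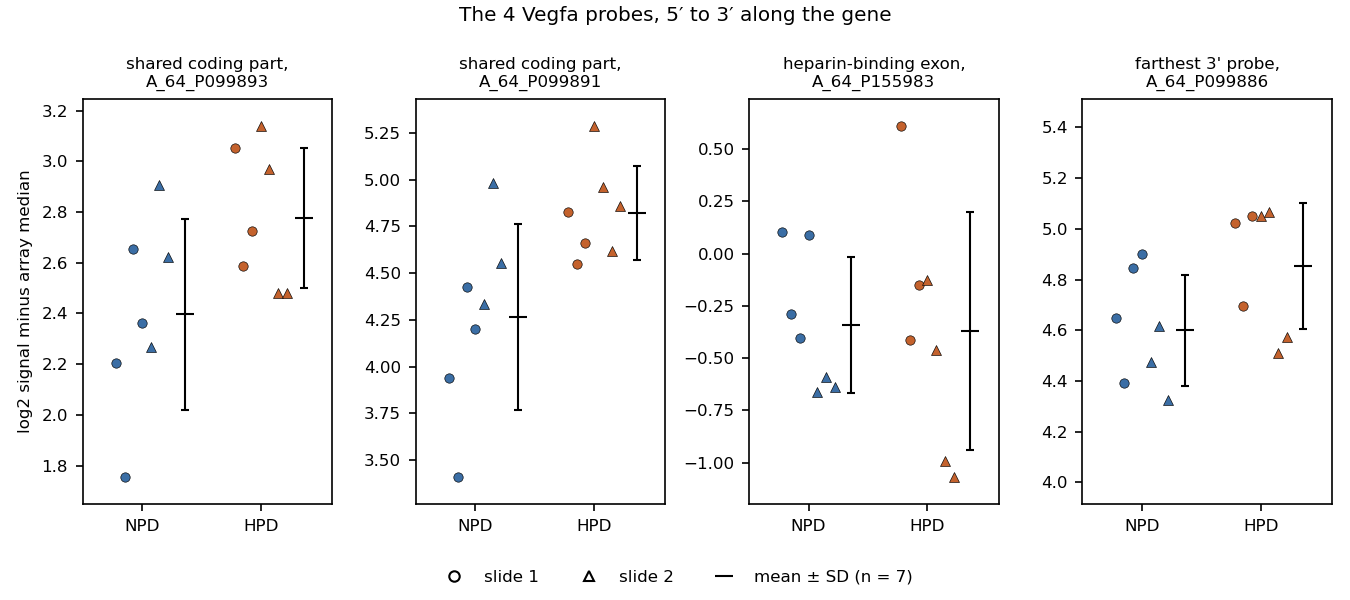
Log2 signal minus the array median of the 4 Vegfa probes in each rat, in 5′ to 3′ order, with NPD in blue, HPD in orange, circles for slide 1, triangles for slide 2 and the mean ± SD of 7 rats. The HPD points of the shared-coding probe A_64_P099891 lie at 4.55 to 5.29 and the NPD points at 3.41 to 4.98, while those of the heparin-binding exon overlap throughout.

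Adm, the gene of the vasodilator peptide adrenomedullin, differed most between rats. It was at 3.92 to 6.56 (median 5.30) under the NPD and at 4.28 to 6.31 (median 4.64) under the HPD. The highest NPD and the highest HPD value were both of a replicate 1 on slide 1. The change was -0.07 with a 95% interval of -0.99 to 0.84 (adjusted p = 0.941), that is, levels from 0.504-fold to 1.8-fold. Leaving out single arrays turned its sign.

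Of the 45 pairs of members, correlated over the 14 arrays by their brightest probes, 2 had an adjusted permutation p under 0.05 by Pearson's r and 1 by Spearman's rho. These permutations moved arrays freely between diets and slides, so a slide difference shared by 2 genes enters their p. Slc2a1 and Bnip3 gave r = 0.85 (permutation p = 0.00019, adjusted p = 0.00855) and rho = 0.85 (p = 0.00022, adjusted p = 0.0099). Within the slides r was 0.89 and 0.87, and it was 0.80 without the 2 arrays farthest from the median of Slc2a1. Rats with high Slc2a1 thus also had high Bnip3, under both diets and on both slides. Ndrg1 and Car9 gave r = 0.79 (permutation p = 0.00075, adjusted p = 0.0169) but rho = 0.70 with an adjusted p of 0.144. Within the slides r was 0.53 and 0.51, and both genes were lower on slide 2, Car9 by 0.32 (adjusted p = 0.0192). After the mean of each diet and slide was subtracted, Slc2a1 and Bnip3 kept r = 0.87, and Ndrg1 and Car9 had r = 0.48. On that measure, given as a description over 14 arrays, Slc2a1 and Egln3 (0.85), Hif1a and Ndrg1 (0.84) and Egln3 and Bnip3 (0.79) also ran together, with plain r of 0.46, 0.53 and 0.18. For Hif1a and Ndrg1 the plain r was 0.89 within slide 1 and -0.36 within slide 2.

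**Figure D4:**
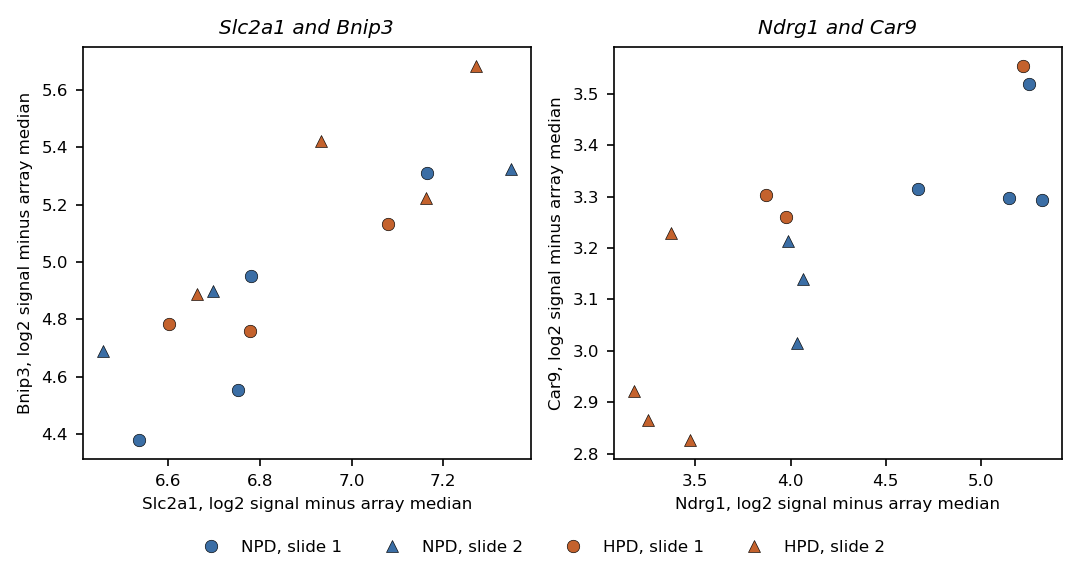
Log2 signal minus the array median of Bnip3 against Slc2a1 (left) and of Car9 against Ndrg1 (right), 1 point per rat, NPD in blue, HPD in orange, circles for slide 1 and triangles for slide 2. The points of Slc2a1 and Bnip3 follow 1 line on both slides (r = 0.89 and 0.87), while Ndrg1 and Car9 separate by slide.

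The ratio of 2 members on the same array does not depend on the value on which the array is centred. It can change with background correction, quantile normalization or cyclic loess, and slide differences of single probes remain in it. The ratio was computed from the main values only. It was compared between the diets for all 45 pairs, a comparison chosen after seeing the data. Over all splits of the arrays no pair passed (lowest adjusted exact permutation p = 0.0918, n = 7 per diet). Among regroupings within slides 5 pairs had an adjusted p under 0.05. Slc2a1 over Egln3 was higher under the HPD by 0.46 (exact p = 0.000816, adjusted p = 0.0276 within slides). Bnip3 and Vegfa also moved apart from a member of the lower side: Egln3 over Bnip3 changed by -0.61 and Ndrg1 over Vegfa by -1.13 (both adjusted exact p = 0.0276 within slides). The others were Hif1a over Ndrg1, with a change of 0.81 (adjusted exact p = 0.0276), and Ndrg1 over Car9, with -0.76 (adjusted exact p = 0.0441). All 5 pairs hold Ndrg1 or Egln3, so they are not 5 separate results. A ratio alone does not show which gene of the pair changed. Taken singly in the main fit, Ndrg1 changed by -0.88 and Egln3 by -0.35. Their partners changed by -0.06 (Hif1a), -0.12 (Car9), 0.11 (Slc2a1), 0.25 (Vegfa) and 0.26 (Bnip3).

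The genes whose levels ran most closely with a member were found among 15288 gene names whose probe was above background on all 14 arrays. The measure was Pearson's r after the mean of each diet and slide was subtracted, with the plain r over the 14 arrays beside it. For Ndrg1 they were Stk17b (0.96, plain 0.97), Sppl2a (0.96, plain 0.98) and LOC500959 (0.95, plain 0.98). For Egln3 they were Car4 (0.94), Pcyt2 (0.90) and Rai14 (0.90), with plain r of 0.31, 0.74 and 0.72. For Slc2a1 they were TC582327, St3gal4 and Itpripl2 (0.91 to 0.97), and for Bnip3 A_43_P22629, Ankrd9 and Grb2 (0.92 to 0.95). For Hif1a they were Ublcp1, ENSRNOT00000007475 and Dnajc11 (0.92 to 0.94), and for Vegfa Rnf152, LOC100361389 and LOC311352 (0.86 to 0.90). With so many candidates and 14 arrays, high values of r arise for many genes, and these are a description.

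Around the members, genes of 5 lists were read in the same fit, and limma called none of their genes at a q-value below 0.1. Of all probes 35.8% were lower by sign, and 5.86% were higher and 5.55% lower at an unadjusted p under 0.05. Of 19 genes of oxygen sensing and HIF turnover on the array, 11 were higher and 8 lower, with 0 and 2 at an unadjusted p under 0.05 and a median change of 0.13. This split turned to 9 higher and 10 lower in the deposited table (median -0.0097) and after normexp with slide as a block (-0.03), and to 8 and 11 in the deposited values with a slide block (-0.05). Gnb2l1 encodes RACK1, a scaffold protein of the ribosome that also promotes degradation of HIF-1α. Its level was 7.44 to 7.89 (median 7.65) under the NPD and 6.77 to 7.32 (median 7.15) under the HPD, without overlap. Its change was -0.57 ± 0.12 (SE) with an adjusted p of 0.289 and an exact permutation p of 0.000583 (n = 7 per diet), the smallest that the splits of 14 arrays can give. Without HPD replicate 1 limma called 1 gene of this list. Siah1a, a ubiquitin ligase that degrades prolyl hydroxylases, changed by -0.44 ± 0.17 (SE) (adjusted p = 0.417).

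**Figure D5:**
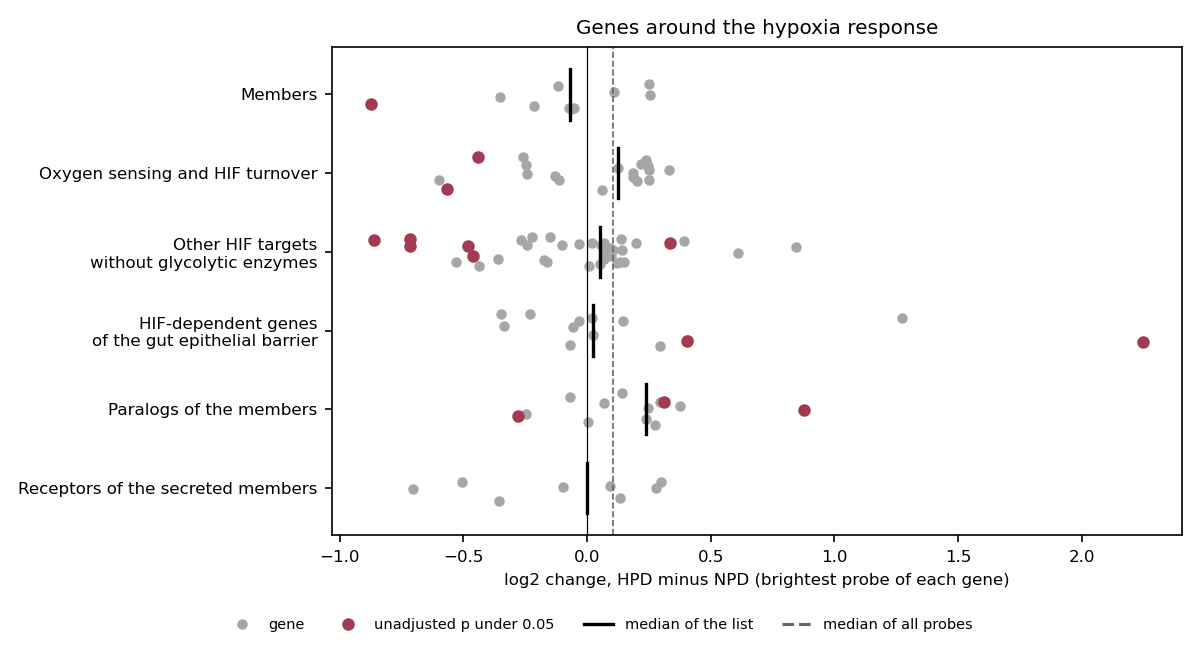
Log2 change (HPD minus NPD, x axis) of each gene of the members and the 5 lists by its brightest probe, red where the unadjusted p was under 0.05, with the median of each list (black bar) and of all probes (dashed line, 0.11). The list medians lie between 0.00 and 0.24 and that of the members at -0.07.

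Of 37 other HIF targets on the array, 26 were above background on all 14 arrays. Of the 37, 21 were higher and 16 lower, with 1 and 5 at an unadjusted p under 0.05 and a median change of 0.05. This split turned with the scaling, to 14 higher and 23 lower with mean centring, quantile normalization or normexp. The lower ones were Higd1a, which shields the respiratory chain in hypoxia (-0.86 ± 0.37 SE, adjusted p = 0.422), Edn1, the vasoconstrictor endothelin 1 (-0.72 ± 0.32, adjusted p = 0.428) and P4ha1, a collagen prolyl hydroxylase (-0.72 ± 0.24, adjusted p = 0.417). They further included Bhlhe40, a transcriptional repressor (-0.48 ± 0.22, adjusted p = 0.43), and Hmox1, heme oxygenase 1 (-0.46 ± 0.19, adjusted p = 0.418). The higher one was Cox4i2, an isoform of a cytochrome c oxidase subunit used in low oxygen (0.34 ± 0.15, adjusted p = 0.437). The level of Higd1a was 1.34 to 2.69 (median 2.36) under the NPD and -0.13 to 2.86 (median 1.19) under the HPD. For all 6 the diets overlapped.

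Of 14 HIF-dependent genes of the epithelial barrier on the array, 8 were higher and 6 lower (6 and 8 with mean centring, quantile normalization or cyclic loess), with 2 and 0 at an unadjusted p under 0.05 and a median change of 0.02. Above background on every array were 10 of these 14 genes. Tff2, a trefoil peptide secreted with mucus, had the widest spread. It was at -2.87 to 1.29 (median -1.09) under the NPD and at -1.21 to 5.18 (median 0.50) under the HPD, with a change of 2.25 ± 0.88 (SE) and an adjusted p of 0.417. Slc11a2, the iron importer DMT1, had 3 probes that disagreed. The brightest changed by 0.40 ± 0.17 (SE) (adjusted p = 0.422) and the others by 0.12 and -0.08.

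Of 13 paralogs of the members on the array, 10 were higher and 3 lower (7 and 6 after quantile normalization or cyclic loess), with 2 and 1 at an unadjusted p under 0.05. Their median change was 0.24, and 6 of the 13 were above background on all 14 arrays. The members of the Ndrg family differed in sign. Ndrg4 was at 1.82 to 2.42 (median 1.99) under the NPD and 2.25 to 3.65 (median 3.14) under the HPD, and all 7 HPD arrays lay above the NPD mean. Its change was 0.88 ± 0.21 (SE), the opposite sign to Ndrg1 (adjusted p = 0.417, exact permutation p = 0.00291, n = 7 per diet). Ndrg3 changed by -0.28 ± 0.11 (SE) (adjusted p = 0.417, exact permutation p = 0.00874), with -0.14 and -0.17 at its other probes. The muscle glucose transporter Slc2a4 was not well above background on any array. Of the 8 genes listed for receptors of VEGF and adrenomedullin or their subunits, 2 were above background on all 14 arrays, Ramp1 and Ramp2. Calcrl was above background on no array. Of these 8 genes 4 were higher and 4 lower, with 0 at an unadjusted p under 0.05 in either direction and a median change of 0.00.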

How the data were processed

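Colonocyte RNA of 7 NPD and 7 HPD rats was measured on 1-colour Agilent arrays with 62976 spots, of which 58717 were not controls. The files the authors deposited hold, for each spot, the raw and the background-subtracted intensity (linear scale) and marks for outliers, saturation and background (Feature Extraction 10.7.3.1 per the submitters' processing notes). A further deposited table holds log2 values that the authors had normalized, 1 row per gene name. Array coordinates use build rn4 per the file headers. The number of columns of other samples was 0. Arrays that the authors had removed as outliers were not analysed here.

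After removal of control and outlier spots, the background-subtracted signal was log2-transformed, averaged over the spots of a probe and centred on the median of each array, without a filter on signal. The diet effect was fitted in R 4.3.3 by limma 3.58.1, with no other term in the model, with Benjamini-Hochberg adjustment over 30367 probes and a q-value below 0.1 as threshold. The scheme was run on simulated data with independent noise for each probe and no slide differences. That run therefore does not show how the threshold behaves on arrays with slide differences such as these. A gene with several probes was counted by its brightest, and its other probes are given where they disagree. For single values, two-sided exact permutation tests used all 1716 distinct splits and the 1225 regroupings of arrays within slides. Correlations between members were tested with 100000 permutations of all 14 arrays, without regard to diet or slide. The number of arrays limits the precision, and nothing in the labels gives the rats' cages or days.

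The members and the gene lists were chosen with earlier results of these data known. The genes named were all members, then from each list up to 6 genes with an unadjusted p under 0.05 by the size of their change (none was called), and for 6 members the 3 genes with the highest r. Alternatives were the mean or median pixel signal, normexp background correction (offset 50), centring on the mean or the 75th percentile, quantile normalization, cyclic loess, the deposited table, slide or replicate number as a block, slide as a block with normexp or the deposited table, an eBayes trend, probes well above background only, the mean of all probes of a gene, a q-value below 0.05 and leaving out each array. Fits within each slide and the ratios between members were chosen after seeing the data. The replicate numbers were not taken to pair the arrays. The sequences of the other 2 Vegfa probes are not reported here. The figures were drawn with matplotlib 3.10.9.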

Additional observations from a re-analysis of the deposited data

Results flagged for a closer look

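Among the 28 groups of 7 values (14 probes in each diet), 1 had an array far from the others, where chance gives about 1 in 20. For Ndrg1 the level of HPD replicate 1 was 5.22 and that of the next HPD array 3.97, a gap of 0.61 of the range of the 7 HPD arrays. This array lay on slide 1, where the NPD levels were 4.67 to 5.32. It also had the highest level of both diets for Hif1a, Car9, both Ddit4 probes and the heparin-binding exon of Vegfa. Without it the change of Ndrg1 was -1.12 in place of -0.88.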

How the results depend on the processing

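The count of members lower in the HPD group was 6 or 7 in all 31 alternative settings that gave it. limma called 0 members except after normexp, after normexp with slide as a block and from the deposited values with a slide block, where the count was 2 each time, Ndrg1 and Egln3. The next counts are in the order normexp, normexp with slide, deposited table with slide. Of 19 genes of oxygen sensing limma called 4, 5 and 4, and of 37 other HIF targets 3, 8 and 7. Of 14 barrier genes it called 1, 1 and 0 and of 13 paralogs 3, 3 and 1, against 0 of each as reported. All of the called sensing genes were lower in the HPD group, as were 2 of the 3, 6 of the 8 and 5 of the 7 other targets. The barrier gene was higher, and the paralogs were 2 higher and 1 lower in both normexp settings and 1 higher in the other. Most of the genes called higher had a signal near the floor. Defb1 and Slc2a4 were well above background on 0 arrays, Epo on 1 NPD and 3 HPD arrays, and Plod2 on 2 and 5. Of the genes called higher, only Ndrg4 was above background on all 14 arrays. The cause of these differences between settings was not tested. The 3 settings called 5142, 8479 and 2767 of all features, or 16.9%, 27.9% and 10.5%. By sign, 37.3%, 41.5% and 43.6% of all features were lower in them. The direction of all called features was not counted in these settings. The receptors stayed at 0. Leaving out single arrays gave 0 to 1 called genes for sensing, other targets and paralogs (1 each without HPD replicate 1), 0 for members, barrier genes and receptors, and 9 to 151 probes over all (151 without HPD replicate 1).

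The sign turned for Hif1a with the mean pixel signal (0.0369), the median pixel signal (0.0525), normexp (0.0522), the deposited table (0.0111), both of these with a slide block (0.0585 for normexp, 0.0354 for the deposited table) and within slide 2 (0.27). For Slc2a1 it turned in the first 6 of these settings (-0.0049, -0.0023, -0.0469, -0.035, -0.0482 with normexp and slide, and -0.0219 with the deposited table and slide). For Car9 it turned within slide 1 (0.0167). Over fits without single arrays the changes were -0.23 to 0.0732 for Hif1a, -1.12 to -0.76 for Ndrg1, 0.21 to 0.31 for Vegfa, 0.05 to 0.20 for Slc2a1, -0.10 to -0.02 for Egln1, -0.45 to -0.28 for Egln3, 0.16 to 0.33 for Bnip3, -0.33 to -0.09 for Ddit4, -0.19 to -0.07 for Car9 and -0.29 to 0.17 for Adm. The shared-coding Vegfa probe A_64_P099891 changed by 0.41 to 0.68 in these fits. None of these changes passed the threshold in them.

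Arrays of different diets share a replicate number. Same-numbered arrays had deviations from their diet's mean that correlated by -0.15 to 0.66, over 0.1 in 6 of 7 pairs. Of the 14 arrays, 4 correlated best with their own number. All same-numbered arrays shared a slide except those of number 4, which gave the -0.15. Slide means were not subtracted here, so these values cannot tell pairing from a shared slide. The numbers were not taken to pair the rats. With the replicate number as a block, limma called 0 members (Ndrg1 adjusted p = 0.178) and 8 of all probes. With 7 rats per diet, the 95% interval of the change was narrowest for Egln1 (-0.29 to 0.18) and widest for Adm (-0.99 to 0.84) among the brightest probes of the members.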
